A study of Mus musculus with 8 samples.

Results

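The tumour necrosis factor (TNF) superfamily consists of trimeric ligands, most of them anchored in the membrane of the cell that makes them, and of the receptors that bind them. It was read here as all genes whose symbol begins with Tnfsf or Tnfrsf, together with Tnf, Lta, Fasl, Cd40lg and Cd70 (ligands) and Ltbr, Fas, Cd27, Cd40, Eda2r and Edar (receptors). Only probe sets tied to exactly 1 gene symbol were used. They hold 40 members among the 19938 genes measured, 14 ligands and 26 receptors, each read by 1 probe set. Another probe set carries several symbols of the family, Tnfsf12 and Tnfsf13 among them, and was left out by this rule.

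The samples were whole livers of mice aged 4 weeks, 1 Affymetrix array per liver. The 4 transgenic animals carried constitutively active IKK2 under the LAP promoter, which drives expression in hepatocytes, and the 4 controls were labelled wild type. Both groups came from a mixed C57BL/6 and NMRI stock crossed back at least 4 times to C57BL/6. The 4 arrays of a group are called biological replicates in the labels.

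IKK2 is the kinase that releases the transcription factor NF-kB from its inhibitors. Receptors of the TNF family are among the main inputs of that kinase, and several ligands and receptors of the family are textbook targets of NF-kB, so the family stands on both sides of it. Some receptors hold a death domain, through which they can start apoptosis; most others recruit TRAF adaptors, which pass the signal to NF-kB and to stress kinases; and a few are decoys that bind ligand without signalling. In liver, hepatocytes are known for their sensitivity to Fas, while many ligands of the family are made by lymphocytes and macrophages. The comparison asks which members differ in the whole organ when the kinase is active in its hepatocytes.

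Values are log2 expression values as deposited, fold changes are transgenic minus control on that scale, and SE is the standard error of limma, the linear model fitted to all probe sets with 1 symbol. A gene is said to have risen or fallen where limma's p, adjusted by Benjamini and Hochberg over all of them, was under 0.05. The kinase's own gene, Ikbkb, read 8.38 to 9.09 in transgenic livers, replicates 1 and 2 being the higher ones, and 7.44 to 7.85 in controls. Its log2 fold change was 1.00 (SE 0.18, adjusted p = 0.0185). The call was lost against a 1.2-fold change, without transgenic replicate 1 and without each control (adjusted p up to 0.0729). Hepatocyte markers were bright in both groups: the mean over 9 of them lay between 11.70 and 11.90 in transgenic and between 11.86 and 11.95 in control livers. Array medians lay between 4.88 and 5.08, and within a group the arrays correlated at 0.976 or more over all these probe sets. No background was measured, so the size of a change in a gene read near the bottom of the scale is uncertain, and precision is limited by having 4 arrays a group.

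Receptors made up most of the change in the family. Of 40 members 7 rose and 0 fell, with 33 not passing. The risers were 6 of 26 receptors (Tnfrsf23, Tnfrsf14, Tnfrsf1b, Tnfrsf21, Fas and Tnfrsf11a) and 1 of 14 ligands (Tnfsf10). Of all genes tested, 4.67% rose and 1.67% fell, 6.34% in either direction. At an unadjusted p under 0.05, limma counted 11 members higher and 4 lower. It counted 3052 of all 19938 genes higher and 3649 lower at that limit. The median log2 fold change was 0.17 over the receptors, -0.02 over the ligands, 0.05 over the family and -0.07 over all genes. Quantile normalization and centring each array on its median turned the ligands' median to 0.06 and left that of the receptors positive, at 0.12 and 0.25. No test was made of receptors against ligands, since genes of a family are not replicates.

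These counts depend on the arrays kept. Without transgenic replicate 1, or without any 1 of control replicates 1 to 4, 2 members rose, and in each of these 5 settings they were Tnfrsf14 and Tnfrsf21. The share of all genes that rose then lay between 0.963% and 1.34%.

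**Figure D1:**
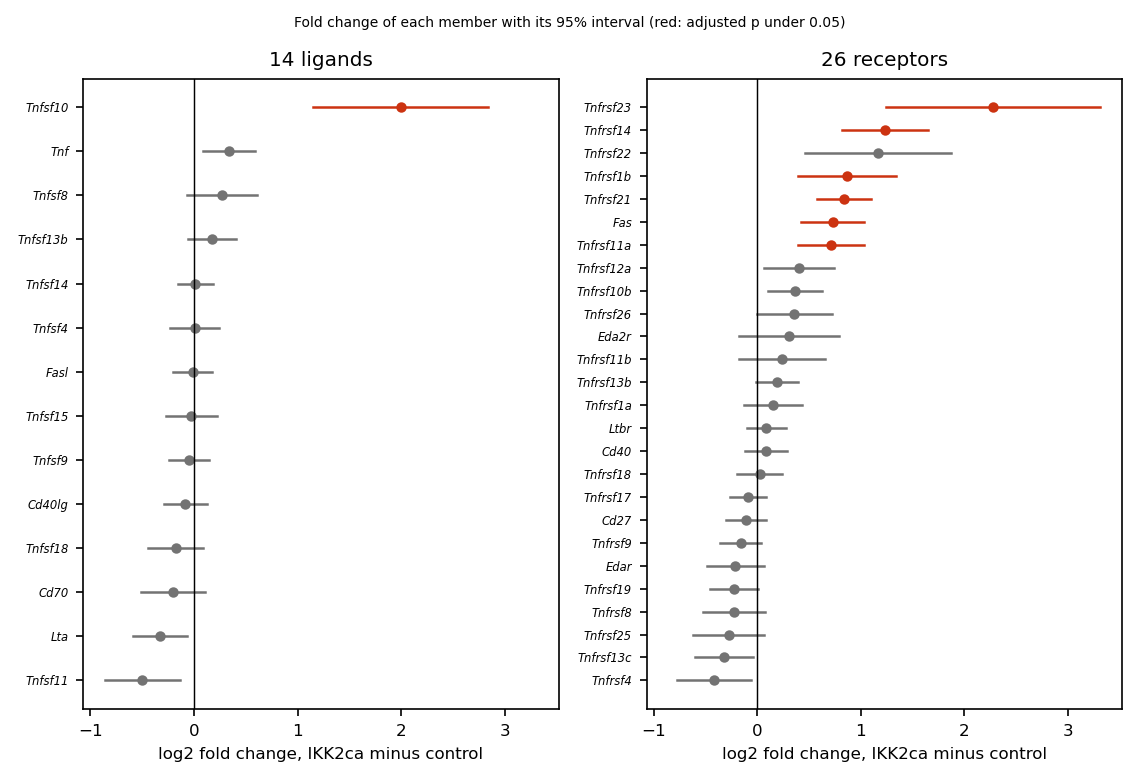
Log2 fold changes of the 14 ligands (left) and 26 receptors (right), transgenic minus control, as points with limma's 95% interval as bars; red marks an adjusted p under 0.05, grey the other members. Of the ligands only Tnfsf10 is red, at 2.00, while 6 receptors are red, from 0.71 to 2.28.

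Readings of most ligands lay low on the arrays. Of the 14 ligands, 11 read under the array's median on all 8 arrays, against 4 of 26 receptors and 6909 of all 19938 genes. When all genes were put into 4 equal groups by mean level, 12 ligands and 16 receptors fell into the 2 dimmer groups. In those groups 0.321% and 2.77% of all genes rose, against 7.54% and 8.06% in the 2 brighter ones. Of the 10 receptors in the brighter groups 4 rose (Tnfrsf14, Tnfrsf1b, Tnfrsf21 and Fas), beside 7.80% of all genes there. The 2 ligands in those groups were Tnfsf10, which rose, and Tnfsf11, which did not pass and had a negative fold change. Of the 15 members under the median of every array 0 passed limma's test, and 1 of them, Lta, had an unadjusted p under 0.05. Of the 6909 genes under every median, 7 rose. Whether the low readings of ligands bear on their few calls was not tested.

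**Figure D2:**
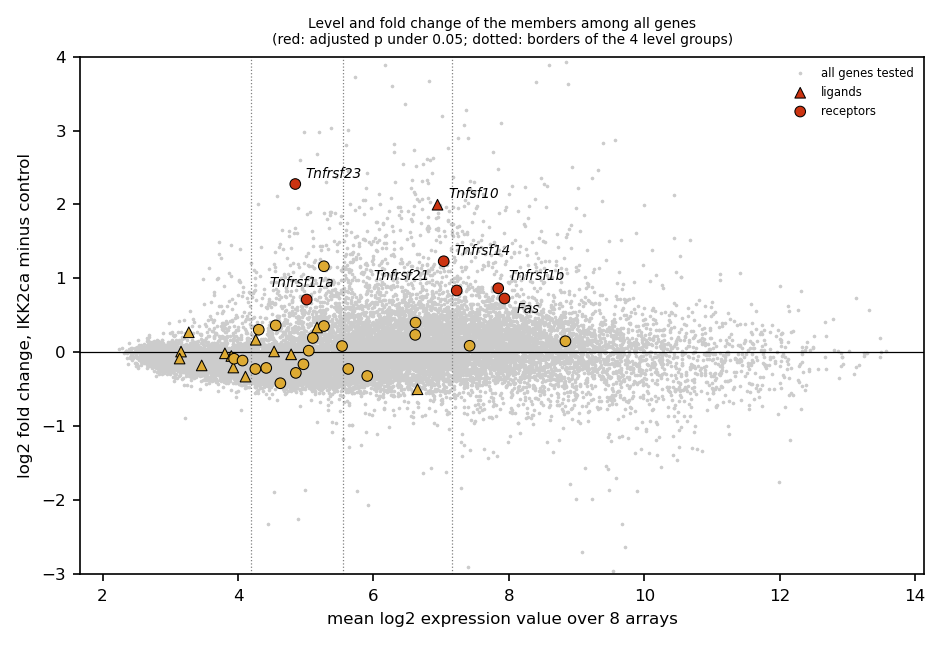
Mean log2 expression value over the 8 arrays (horizontal) against the log2 fold change, transgenic minus control (vertical), for all genes (grey dots), ligands (triangles) and receptors (circles); red marks members with an adjusted p under 0.05, yellow the other members, dotted lines the borders of the 4 level groups, and 20 genes lie outside the vertical range. Most ligands sit in the dimmer groups near 0, and 5 of the 7 red members sit in the 2 brighter groups.

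Since NF-kB binds the kappaB consensus, the members' promoters were searched for it before the values of single genes are described. The sequences are RefSeq windows of build GRCm38.p6 that run from 250 bases before to 50 bases after a gene's start, and 31 of the 40 members had at least 1. The 10-base consensus was sought on both strands. It stood in 3 of the 31, Tnfrsf9, Tnfrsf8 and Tnfrsf25, which all did not pass, and in 0 of the 7 members that rose. For comparison, 8.46% of all windows of this length held it, as did 11.0% of the tested genes with a window and 15.6% of the genes that rose in these livers (117 of 749). Matches farther away were not searched, and a match is a description of letters, not of binding. A second motif, TTTC followed by any 2 bases and TTTC again, the core of an element through which some interferons act, was also sought on both strands. It stood in 4 of the 31 members, of which Tnfrsf14 and Tnfrsf1b rose and Tnfrsf17 and Tnfsf13b did not pass, against 3.44% of all windows, 3.89% of the tested genes with a window and 7.34% of the genes that rose (55 of 749). The first window below is shown because it holds a kappaB match beside the start of a gene that did not rise, the following pair because they hold the second motif in genes that rose, and the last because Tnfsf10 is the ligand that rose and holds neither. Capitals mark the matches, and each run is given 5′ to 3′ on the gene's own strand. For Tnfrsf9 (chr4:150927749-150928048, plus strand) the capitals cover 2 overlapping kappaB matches, GGGGATTTCC beginning 43 bases before the start and GGGATTTCCC beginning 42 bases before it; the other window of this gene holds none. In Tnfrsf14 (chr4:154928028-154928327, minus strand) the match begins 64 bases before the start, and in Tnfrsf1b (chr4:145246821-145247120, minus strand) 10 bases before it. Tnfsf10 lies at chr3:27316827-27317126 on the plus strand.
Tnfrsf9: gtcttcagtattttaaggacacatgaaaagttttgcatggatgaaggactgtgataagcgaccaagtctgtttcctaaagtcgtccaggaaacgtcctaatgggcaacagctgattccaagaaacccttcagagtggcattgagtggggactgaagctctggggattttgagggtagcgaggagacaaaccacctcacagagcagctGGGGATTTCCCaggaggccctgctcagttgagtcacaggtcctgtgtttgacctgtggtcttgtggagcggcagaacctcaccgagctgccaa
Tnfrsf14: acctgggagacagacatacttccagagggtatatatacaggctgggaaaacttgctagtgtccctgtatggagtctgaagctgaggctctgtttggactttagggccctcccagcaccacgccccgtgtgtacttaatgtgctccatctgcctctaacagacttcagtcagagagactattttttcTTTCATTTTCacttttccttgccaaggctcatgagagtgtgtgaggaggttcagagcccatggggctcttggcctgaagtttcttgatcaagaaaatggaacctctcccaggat
Tnfrsf1b: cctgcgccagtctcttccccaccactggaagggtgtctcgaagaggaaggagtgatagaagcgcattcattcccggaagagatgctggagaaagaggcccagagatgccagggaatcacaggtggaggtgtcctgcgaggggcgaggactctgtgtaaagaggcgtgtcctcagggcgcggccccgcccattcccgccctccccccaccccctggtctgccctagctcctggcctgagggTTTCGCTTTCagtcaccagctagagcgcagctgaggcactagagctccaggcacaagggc
Tnfsf10: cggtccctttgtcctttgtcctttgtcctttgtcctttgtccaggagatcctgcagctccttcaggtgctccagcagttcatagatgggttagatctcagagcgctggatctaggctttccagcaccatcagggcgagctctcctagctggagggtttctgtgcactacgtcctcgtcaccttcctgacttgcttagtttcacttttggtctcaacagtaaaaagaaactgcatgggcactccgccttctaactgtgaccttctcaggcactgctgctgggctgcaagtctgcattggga

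Tnfrsf9, a co-stimulatory receptor of activated T cells and the owner of the kappaB match shown above, read 4.83, 4.73, 5.04 and 4.94 in transgenic replicates 1 to 4. Control replicates 1 to 4 read 5.09, 5.10, 5.05 and 4.96. The groups overlap, with a log2 fold change of -0.16 (95% interval -0.36 to 0.04, adjusted p = 0.221). Nothing about NF-kB binding follows from the match or from this level.

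Among the ligands, the death ligand Tnfsf10, known as TRAIL, was the one that rose. It read 8.67, 8.79, 6.90 and 7.42 in the transgenic livers (replicates 1 to 4) and 6.18, 5.85, 5.79 and 5.97 in the control livers. All transgenic livers stood above all controls, but replicates 1 and 2 stood well above replicates 3 and 4. The log2 fold change was 2.00 (SE 0.38, adjusted p = 0.0215), and the SD over the 4 livers was 0.93 in the transgenic group against 0.17 in the controls. The call was lost without transgenic replicate 1 and without each of the 4 controls (adjusted p up to 0.0780).

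TRAIL has 1 signalling receptor in the mouse, Tnfrsf10b, which holds a death domain, and mouse-specific decoys, Tnfrsf22 and Tnfrsf23, which do not signal death. Tnfrsf23 had the highest fold change of the family. It read 6.85, 7.05, 4.63 and 5.41 in the transgenic livers (replicates 1 to 4) and 3.65, 3.74, 3.90 and 3.54 in the control livers. All controls lay far under the array medians, and the transgenic livers were widely spread (SD 1.16). The log2 fold change was 2.28 (SE 0.46, adjusted p = 0.0282); it lost its call without transgenic replicate 1, without each control, in a test against a 1.2-fold change and with all deposited probe sets tested (adjusted p up to 0.0910). Tnfrsf22 read 6.42, 6.57, 5.32 and 5.09 in the transgenic livers (replicates 1 to 4) and 4.78, 4.74, 4.37 and 4.85 in the control livers. These groups do not overlap either. Its log2 fold change of 1.16 (SE 0.31) missed the threshold (adjusted p = 0.0564), and it passed with quantile scaling, once the dimmest 30% were dropped, and without transgenic replicate 3 or 4 (adjusted p down to 0.0182). The genes are close paralogs, and whether each probe set reads its own transcript alone was not tested.

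The signalling receptor did not pass. Tnfrsf10b read 4.96, 4.88, 4.52 and 4.59 in the transgenic livers (replicates 1 to 4) and 4.23, 4.46, 4.45 and 4.36 in the control livers. The lowest transgenic value was just above the highest control. Its log2 fold change was 0.36 (95% interval 0.10 to 0.62, adjusted p = 0.0778), and it passed without transgenic replicate 3 (adjusted p = 0.0483). Tnfrsf11b, osteoprotegerin, a secreted decoy for TRAIL and for Tnfsf11, stood at 0.24 (95% interval -0.18 to 0.65, adjusted p = 0.375), with overlapping groups. Differences between these receptors in their response were not tested.

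Tnf itself, the cytokine that gives the family its name and a textbook NF-kB target, was among the ligands that did not pass. It read 5.22, 5.62, 5.23 and 5.27 in the transgenic livers (replicates 1 to 4) and 4.89, 4.98, 5.18 and 4.94 in the control livers. The groups come close without overlapping, and transgenic replicate 2 stood apart above the others. The log2 fold change was 0.34 (95% interval 0.09 to 0.59, adjusted p = 0.0845), and it passed in 0 of 17 alternative settings. Its receptor without a death domain, Tnfrsf1b, read 8.35, 8.86, 8.04 and 7.86 in the transgenic livers (replicates 1 to 4) and 7.50, 7.54, 7.57 and 7.03 in the control livers. This receptor, carried largely by leukocytes and endothelium, rose by 0.87 (SE 0.21, adjusted p = 0.0437), the weakest call of the family: it was lost with arrays centred on their medians, with all deposited probe sets tested, against a 1.2-fold change, without transgenic replicate 1 and without each control (adjusted p up to 0.232). Its counterpart with a death domain, Tnfrsf1a, which hepatocytes carry, read 9.12, 9.16, 8.65 and 8.71 in the transgenic livers (replicates 1 to 4) and 8.72 to 8.80 in the controls. There the groups overlap, as transgenic replicates 3 and 4 lay under all controls and replicates 1 and 2 above them. The log2 fold change was 0.15 (95% interval -0.13 to 0.43, adjusted p = 0.401).

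Fas, the death receptor to which hepatocytes are known to be sensitive, read 8.35, 8.69, 8.16 and 8.01 in transgenic replicates 1 to 4. Control replicates 1 to 4 read 7.49, 7.66, 7.51 and 7.63. All transgenic livers lay above all controls, and the log2 fold change was 0.73 (SE 0.14, adjusted p = 0.0208). Its call was lost without transgenic replicate 1, without each control and against a 1.2-fold change (adjusted p up to 0.138). The matching ligand Fasl, a product of cytotoxic T and NK cells, read between 3.68 and 3.91 on all 8 arrays, at a log2 fold change of -0.01 (95% interval -0.20 to 0.17). Its sign turned under both other scalings, to 0.08 and 0.07.

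Tnfrsf21, a death domain receptor known as DR6 for which the family holds no agreed ligand, had the smallest adjusted p of the members. Transgenic replicates 1 to 4 read 7.47, 7.97, 7.54 and 7.61, and control replicates 1 to 4 read 6.77, 6.71, 6.83 and 6.93. The groups are well apart, and the transgenic livers lie close together (SD 0.22). The rise was 0.84 (SE 0.12, adjusted p = 0.00722), and it passed in all 18 alternative settings (adjusted p up to 0.0370). With Fas it made up the 2 of 6 measured death domain receptors that rose, while Tnfrsf1a, Tnfrsf10b, Tnfrsf25 and Edar did not pass. Fas, Tnfrsf21 and Tnfrsf1a lie in the brightest level group, where 8.06% of all genes rose. The others lie in a dimmer one, where 2.77% rose. With so few genes, the count does not set these receptors apart from all genes, of which 4.67% rose.

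The herpesvirus entry mediator Tnfrsf14, a receptor for Tnfsf14 and for inhibitory partners outside the family, was the other member to pass in all 18 alternative settings (adjusted p up to 0.0486). It read 7.77, 8.22, 7.32 and 7.31 in the transgenic livers (replicates 1 to 4) and 6.48, 6.40, 6.32 and 6.49 in the control livers. The transgenic livers all stood clearly above the controls. That is a rise of 1.23 (SE 0.19, adjusted p = 0.0102). Its ligand Tnfsf14, known as LIGHT, read between 4.42 and 4.60 on all 8 arrays (log2 fold change 0.01, 95% interval -0.16 to 0.18). Ltbr, the receptor for lymphotoxin beta and another receptor of LIGHT, read 7.41 to 7.58 in transgenic and 7.27 to 7.51 in control livers, at 0.09 (95% interval -0.10 to 0.28, adjusted p = 0.463).

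Of the lymphotoxin genes, Ltb rose and Lta did not pass. Lta, lymphotoxin alpha, read 3.91, 3.70, 3.97 and 4.21 in the transgenic livers (replicates 1 to 4) and 4.11, 4.35, 4.39 and 4.25 in the control livers, all under the array medians. Its log2 fold change was -0.33 (95% interval -0.59 to -0.07, adjusted p = 0.0959), and it passed as lower only without transgenic replicate 4 (adjusted p = 0.0432). Ltb, its partner in the membrane-bound lymphotoxin, is no member by the rule on symbols but was listed beside the family. It read 8.63, 8.41, 6.89 and 6.82 in the transgenic livers (replicates 1 to 4) and 5.40, 5.57, 5.88 and 5.21 in the control livers. The rise of Ltb was 2.17 (SE 0.40, adjusted p = 0.0196), a call lost without transgenic replicate 1 and without each control (adjusted p up to 0.0708).

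Tnfrsf11a, the receptor RANK of osteoclasts, dendritic cells and macrophages, rose from a low level. It read 5.29, 5.82, 5.24 and 5.14 in the transgenic livers (replicates 1 to 4) and 4.69, 4.79, 4.55 and 4.60 in the control livers. All transgenic readings lay above all control readings. Tnfrsf11a rose by 0.71 (SE 0.14, adjusted p = 0.0263), a call lost without transgenic replicate 1, without each control and against a 1.2-fold change (adjusted p up to 0.178). Its ligand Tnfsf11, or RANKL, had a negative fold change. It read 6.48, 5.95, 6.65 and 6.52 in the transgenic livers (replicates 1 to 4) and 6.79, 7.14, 7.00 and 6.68 in the control livers. It is the member whose transgenic livers all lay under all controls, narrowly at the closest pair. Its log2 fold change of -0.50 (95% interval -0.86 to -0.14) did not pass (adjusted p = 0.0799) and passed in 0 of 18 alternative settings.

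**Figure D3:**
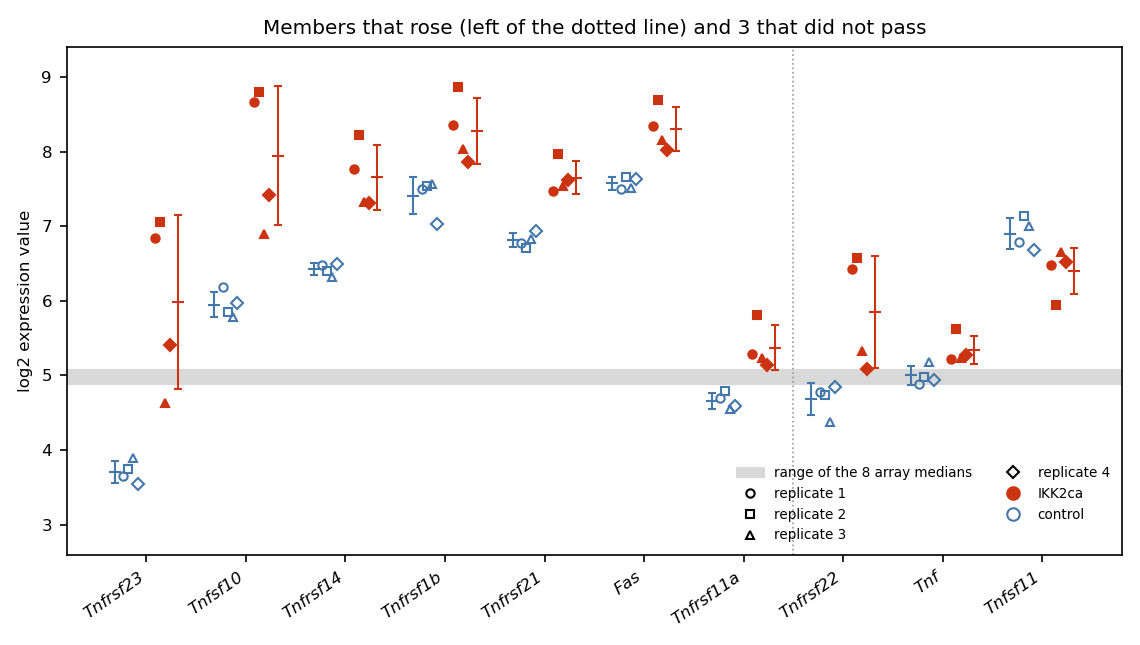
Log2 expression values on each array for the 7 members that rose (left of the dotted line) and for Tnfrsf22, Tnf and Tnfsf11, which did not pass; filled red symbols are transgenic, open blue symbols control, shapes give the replicate number, bars are the mean with 1 SD (n = 4), and the grey band spans the 8 array medians. Both groups are separate for all 10 genes, and in Tnfsf10, Tnfrsf23 and Tnfrsf22 transgenic replicates 1 and 2 lie well above replicates 3 and 4.

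Separation of both groups was more frequent than calls. For 11 members all transgenic livers lay above all controls and for 1, Tnfsf11, all lay below, beside 11.2% of all genes in each direction. The 4 members separated upward without passing were Tnf, Tnfrsf22, Tnfrsf10b and Tnfrsf26. Tnfrsf26, which lies next to the TRAIL decoy Tnfrsf22 in the genome, read 5.28, 6.00, 5.27 and 5.23 in the transgenic livers (replicates 1 to 4) and 5.04 to 5.15 in the controls. Replicate 2 stood far above the rest, and the log2 fold change was 0.36 (adjusted p = 0.156).

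Transgenic livers also differed among themselves. In 6 of the 7 members that rose, Tnfrsf21 being the exception, transgenic replicates 1 and 2 both read above replicates 3 and 4, the order that Ikbkb showed as well. This order, noticed after the values were seen, was found in 808 of the 932 genes that rose (86.7%), in 12 of the 40 members (30%) and in 27.5% of all genes. The SD of the transgenic group exceeded that of the controls in all 7 members that rose, as in 850 of all 932 risers, and in 27 of the 40 members, beside 11846 of all 19938 genes.

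The receptors of B cells for survival ligands, Tnfrsf13b, Tnfrsf13c and Tnfrsf17, lay between -0.32 and 0.19, and 0 of the 3 passed, where 6.34% of all genes did. Tnfsf13b, the B cell survival factor BAFF made by myeloid cells, read 4.15, 4.45, 4.48 and 4.31 in the transgenic livers (replicates 1 to 4) and 3.99, 4.29, 4.20 and 4.23 in the control livers, a log2 fold change of 0.17 (95% interval -0.06 to 0.40, adjusted p = 0.260). Among the co-stimulatory receptors of T cells, Tnfrsf4, Tnfrsf8, Tnfrsf9, Tnfrsf18 and Cd27, 0 of 5 passed and 4 had negative fold changes. With so few genes, these counts do not set them apart from all genes. The most negative was Tnfrsf4, OX40 of activated T cells, at -0.42 (95% interval -0.77 to -0.06, adjusted p = 0.109). Their ligands lay under the median of every array (Tnfsf4, Tnfsf8, Tnfsf9, Tnfsf18 and Cd70) and had log2 fold changes from -0.21 to 0.27, none of which passed. Cd40, the receptor through which T cells license macrophages and B cells, stood at 0.08 (95% interval -0.12 to 0.29) and its ligand Cd40lg at -0.08.

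The remaining receptors gave no calls. Tnfrsf12a, the TWEAK receptor known to be induced in injured liver, read 7.00, 7.13, 6.51 and 6.65 in the transgenic livers (replicates 1 to 4) and 6.25, 6.60, 6.57 and 6.27 in the control livers. Transgenic replicates 1, 2 and 4 lay above all controls, and replicate 3 lay among them. The log2 fold change was 0.40 (95% interval 0.06 to 0.74, adjusted p = 0.108). Eda2r, a receptor for an ectodysplasin isoform, stood at 0.31 (adjusted p = 0.321); transgenic replicate 1 read 5.23 while the other 7 livers read 4.12 to 4.32. Edar, Tnfrsf19 and Tnfrsf25 had log2 fold changes of -0.21, -0.22 and -0.28. The 95% intervals of the 20 receptors that did not pass reached from -0.77 to 1.87.

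Set against each other by known binding, ligands and receptors passed together in 1 case. In 23 pairs with both partners measured, both rose in 1 (Tnfsf10 with Tnfrsf23), the receptor alone in 5, the ligand alone in 3 and neither in 14. The 5 pairs were Fas with Fasl, Tnfrsf1b with Tnf and with Lta, Tnfrsf11a with Tnfsf11, and Tnfrsf14 with Tnfsf14. The 3 pairs were those of Tnfsf10 with Tnfrsf10b, Tnfrsf22 and Tnfrsf11b. Ligands outside the rule on symbols were not paired, among them Ltb, which rose while Ltbr did not pass. The pairs share members and are no independent observations.

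**Figure D4:**
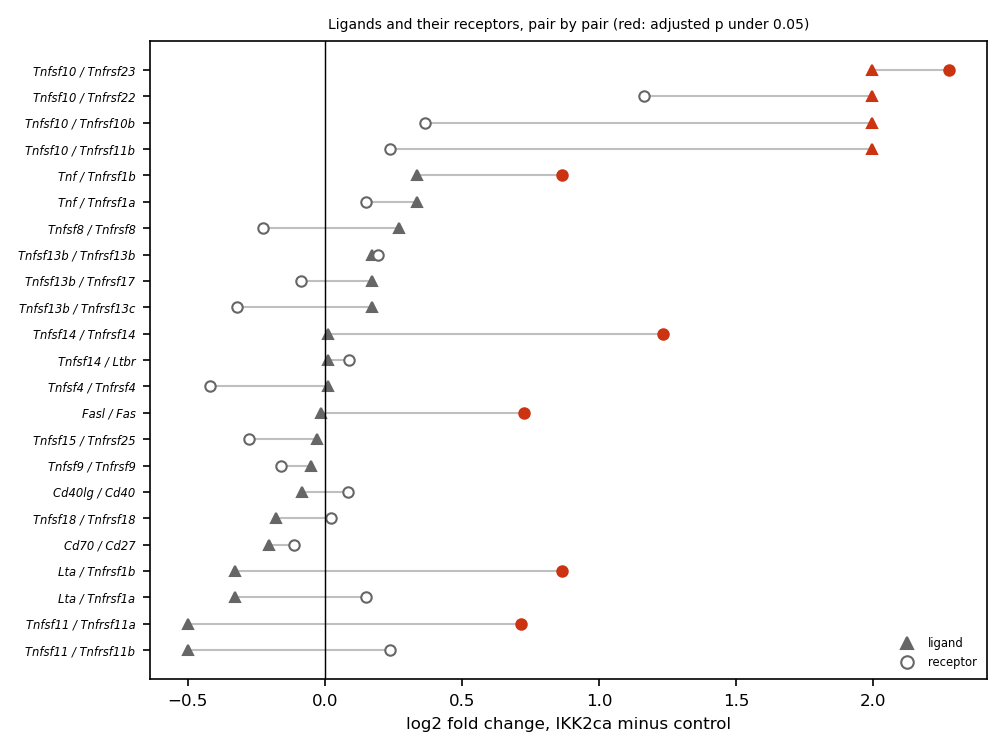
Log2 fold change, transgenic minus control, of the ligand (triangle) and the receptor (circle) of each of 23 known pairs, joined by a grey line; red marks an adjusted p under 0.05. Red appears on both ends only for Tnfsf10 with Tnfrsf23, and in the 5 pairs where the receptor alone is red the ligand lies between -0.50 and 0.34.

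Family members often lie side by side in the genome, which the rule did not use. On the reference annotation, 20 of the 40 stood in 8 groups of neighbours with at most 3 genes between them. Tnfrsf1b, at 0.87, lies next to Tnfrsf8, at -0.23 (adjusted p = 0.249). Tnf, at 0.34, lies between Lta, at -0.33, and Ltb, at 2.17. In the group of Tnfrsf26, Tnfrsf22 and Tnfrsf23, by contrast, all transgenic livers lay above all controls for each gene, with log2 fold changes of 0.36, 1.16 and 2.28. Whether the neighbours differ from each other was not tested.

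Downstream of the receptors, a list of 28 signalling genes was read, of which 26 were measured. Of these 7 rose and 0 fell (16 higher and 1 lower at an unadjusted p under 0.05 in limma), with a median log2 fold change of 0.38. For comparison, 4.67% of all genes rose. Most of the listed genes lie in the 2 brighter level groups, where 7.80% of all genes rose. At the unadjusted limit, 2508 of the 9969 genes in those groups were higher and 1683 lower. Among all 19938 genes, 3052 were higher and 3649 lower. The ubiquitin ligases Birc2 and Birc3, which the receptors recruit and which hold back cell death, rose by 1.78 (SE 0.27, adjusted p = 0.0105) and 1.49 (SE 0.28, adjusted p = 0.0199). Mlkl, the pore-forming effector of necroptosis, rose by 1.82, and the deubiquitinase Cyld, which restrains NF-kB, by 0.85. The inhibitors Tnfaip3 and Tnip1 rose by 3.28 and 2.38, and the adaptor Tank by 0.63. The adaptors next to the receptors did not pass: Traf2 stood at 0.49, Tradd at -0.01, Fadd at 0.44 and Traf6 at 0.25, and the protease Casp8 at 0.54 (adjusted p = 0.101). Traf3 and Ripk1 had no probe set with 1 symbol. The count of risers fell to 3 or 4 without transgenic replicate 1 and without each control.

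Some ligands of the family can be freed from the membrane by proteases. Of 8 genes listed for ligand shedding 4 rose, beside 4.67% of all genes. All 8 lie in the 2 brighter level groups, where 7.80% of all genes rose. Adam17, the protease that releases TNF and sheds its receptors, rose by 0.95 (SE 0.19, adjusted p = 0.0250), and Rhbdf2, which carries Adam17 to the surface, by 0.95 (SE 0.17, adjusted p = 0.0192). The related protease Adam10 rose by 1.11 and the intramembrane protease Sppl2a by 0.52 (adjusted p = 0.0467). Sppl2a passed in 7 of 18 alternative settings, with the call lost also on centred arrays, with array weights, with all deposited probe sets tested and without transgenic replicate 2 (adjusted p up to 0.496 over all settings). Rhbdf1, Frmd8, Sppl2b and the inhibitor Timp3 did not pass, though Sppl2b, at -0.38, passed as lower with quantile scaling, with array weights and once the dimmest 30% or 50% were dropped. The list gave 0 risers without transgenic replicate 1 and without each control.

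Many members are carried by leukocytes, and markers of some leukocytes were higher in the same livers. In a whole organ, more cells of a type and more RNA per cell cannot be told apart. For comparison with the counts that follow, 4.67% of all genes rose, and 7.80% of those in the 2 brighter level groups. Of 13 Kupffer cell and macrophage markers 11 rose, and their summed level divided by their number lay between 9.14 and 10.4 in transgenic and between 7.88 and 8.29 in control livers. For 9 monocyte markers, of which 7 rose, it was 6.12 to 7.53 against 4.62 to 4.76, led by Ccr2 at 3.72 and Ms4a6c at 2.90. For 15 T and NK cell markers, of which 5 rose, it was 4.78 to 5.58 against 4.39 to 4.48, and for 9 dendritic cell markers, of which 4 rose, 5.41 to 5.65 against 4.79 to 4.97. Of 10 stellate cell markers 4 rose, with 8.04 to 8.42 against 7.63 to 8.05, and of 10 endothelial markers Stab1 alone, with 8.48 to 8.63 against 8.20 to 8.53. Of B cell, neutrophil, bile duct and hepatocyte markers 0 of 10, 11, 7 and 9 passed limma's test. At an unadjusted p under 0.05 in limma, 1 B cell marker and 3 hepatocyte markers were lower and 2 neutrophil markers higher. Of the bile duct markers, 1 was higher and 2 lower at that limit. So were 3052 and 3649 of all 19938 genes, and 2508 and 1683 of the 9969 in the 2 brighter level groups. B cell markers gave 4.58 to 4.79 against 4.57 to 4.78, neutrophil markers 4.15 to 4.86 against 4.11 to 4.33, and bile duct markers 5.31 to 5.51 against 5.15 to 5.39. Of the B cell markers 8, Cd79a and Ms4a1 among them, lay under every array median. The B cell marker lower at the unadjusted limit was Sdc1, by far the brightest of its list and part of that mean. Sdc1 read 8.88 to 9.11 in transgenic and 9.19 to 9.54 in control livers. The part of these cells in the rise of Tnfrsf1b, Tnfrsf14, Tnfrsf11a and the other members was not tested.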

How the data were processed

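The 8 deposited columns hold log2 values for every probe set, which the authors obtained from Expression Console (named in the submitters' processing notes); its version, settings and normalization: not given in the sources used here. Base 2 for the logarithm was read from the maximum of 14.1. Of 35556 probe sets, annotation ties 21789 to 1 symbol, 1621 to several and 12146 to none. Array medians differed by less than 0.5, so no further normalization was applied. Limma 3.58.1 in R 4.3.3 (package data.table, version 1.17.8) fitted the group as the only term to the 21789 probe sets, with empirical Bayes moderation, two-sided tests and Benjamini-Hochberg adjustment over all of them; genes were counted through their brightest probe set. Of these steps, the limma fit was tested on simulated data, drawn for each gene with the same SD in both groups. The wider spread of transgenic livers in the genes that rose was thus not simulated.

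The members, lists, pairs and groups of roles were chosen with earlier results of these data known. Named with values are Ikbkb, members that passed, partners of these, the 3 most extreme others of each class and direction, and, by smallest p, up to 4 genes that passed of each pathway list and 2 of each marker list; further members and list genes, and the motifs, were chosen after values were seen. Symbols of all 40 members matched the annotation of GRCm38.p6 by Entrez identifier; promoters are RefSeq's. Alternatives were 2 scalings, filters on dim probe sets, all probe sets, averaged probe sets, trend and robust moderation, array weights, a replicate block, a test against 1.2-fold (treat), and dropping each array in turn. The planned change of pseudocount did not apply to log2 values.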

Additional observations from a re-analysis of the deposited data

Results flagged for a closer look

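In 61 genes (122 groups of 4 arrays), 4 readings stood far from the other 3 of their group by Dixon's ratio at its 95% critical value; chance alone would give about 1 in 20 groups. All 4 belong to members, which made up 80 of the 122 groups, and 4 is under the 6.1 that this rate gives. Eda2r read 5.23 in transgenic replicate 1, with its group otherwise at 4.14 to 4.32. Tnf read 5.62 in transgenic replicate 2 against 5.22 to 5.27. Tnfrsf26 read 6.00 in transgenic replicate 2 against 5.23 to 5.28. Tnfrsf1b read 7.03 in control replicate 4, with its group otherwise at 7.50 to 7.57.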

How the results depend on the processing

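With 18 alternatives to the reported analysis, the 7 risers of the family numbered 5 to 8 under other scalings, filters, probe set choices, moderation, array weights and the replicate block, 3 under treat (a test against 1.2-fold), and 2 to 9 with 1 array left out. Dropping the dimmest 30% or 50% kept 26 or 12 members, of which 8 or 5 rose, beside 8.15% or 10.6% of the genes kept. The share of all genes that rose was 1.36% under treat and 0.963% to 8.21% with 1 array left out. In the remaining settings it was 2.13% to 5.35%. Risers among receptors numbered 2 under treat and 2 to 8 with 1 array left out; those among ligands 0 to 1. Members that fell numbered 0 to 1 with 1 array left out, as did ligands. Signalling genes that rose numbered 4 under treat and 3 to 10 with 1 array left out. Shedding genes that rose numbered 0 under treat, 2 with the replicate block and 0 to 5 with 1 array left out, and 1 of them fell with quantile scaling, with array weights and once the dimmest 30% or 50% were dropped. Leaving out an array leaves fewer samples; the cause of the other shifts was not tested. Fasl, at -0.01, turned to 0.080 with quantile scaling and 0.066 with centred arrays and ran from -0.057 to 0.019 with 1 array left out, and Tnfsf14, at 0.01, read 0.12 with quantile scaling and 0.091 with centred arrays and ran from -0.024 to 0.028 with 1 array left out; neither passed in any setting. Of all genes 5.35% rose and 3.20% fell after quantile normalization, and 3.10% and 0.487% with centred arrays.

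Same-numbered arrays of both groups correlated, as deviations from the group means, at 0.24, -0.03, 0.26 and -0.13. Transgenic replicates 1 and 3 correlated best with the control of their own number, and replicates 2 and 4 with another control. So few arrays cannot decide whether the numbers pair the livers. With the replicate block the same 7 members rose, 6 of them receptors and 1 a ligand, 6 signalling genes rose, Adam17 and Sppl2a of the shedding genes lost their calls (adjusted p = 0.0515 and 0.0680), and the share of all genes that rose went from 4.67% to 3.36%. Signal over background was not measured, which limits what can be said of members read under the array medians.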
